A study of Mus musculus with 12 samples.

Results

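Calcineurin and the NFAT transcription factors were examined through 9 genes, chosen by their symbols out of 55536 annotated genes in the count table. They were the catalytic subunit genes Ppp3ca, Ppp3cb and Ppp3cc, the regulatory subunit gene Ppp3r1, the calcineurin inhibitor Rcan1, and the factors Nfatc1, Nfatc2, Nfatc3 and Nfat5. RNA-seq was carried out on 12 libraries of mouse OT-I CD8+ T cells, whose transgenic receptor recognises the ovalbumin peptide SIINFEKL. The 2 Naive libraries came from CD8+ T cells of OT-I Tg mice that had received no transfer. In the 5 Ag and 5 Ag+Costim libraries the OT-I cells, from CD45.1 donors, had been transferred into C57BL/6J mice and were sorted at day 4 from spleen and lymph nodes. Recipients of the Ag group were given antigen with control rat IgG, and those of the Ag+Costim group were given antigen with agonist antibodies to CD134 (OX40) and CD137 (4-1BB). All donors carried the OT-I receptor on a Rag1-/- or Rag2-/- background according to the study's methods, animals of both sexes and a range of adult ages were used, and the transferred cells were isolated by CD8, CD45.1, Vα2 and Vβ5. The labels do not say that the libraries of a group came from separate mice, so the p-values below measure the spread between these libraries.

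Calcineurin is a phosphatase made of a catalytic A subunit and a calcium-binding regulatory B subunit, and it is switched on by calcium and calmodulin after T cell receptor signalling opens the calcium channels of the plasma membrane. It removes phosphates from the cytoplasmic NFAT proteins NFATc1, NFATc2 and NFATc3, which then enter the nucleus and drive cytokine and activation genes, while kinases such as GSK3 and DYRK return them to the cytoplasm. NFAT5, which is not one of these proteins, carries the same kind of DNA-binding domain and is known for its response to osmotic stress. RCAN1 binds calcineurin and inhibits it, and its gene can itself be switched on by NFAT.

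Sequencing depth was similar in 11 of the 12 libraries. Total counts were 42342577 and 43491402 in the Naive libraries, ranged from 40028682 to 49294934 in the Ag+Costim libraries, and ranged from 24006053 to 45980125 in the Ag libraries, where library 4 was the shallowest. The T cell markers Cd3e, Cd3d, Cd3g, Cd8a, Cd8b1, Lck and Cd2 were all present in every library, with Cd8a between 503.8 and 1302 CPM (counts scaled to a common library size with the trimmed mean of M values, TMM), and Cd4 was at or below 2.44 CPM. The summed T cell markers, of which Lck was the most abundant, were 10207 ± 1250 CPM (SD, n = 5) in Ag, 5811 ± 710.2 CPM (n = 5) in Ag+Costim and 8294 ± 391.7 CPM (n = 2) in Naive, and 6 of the 7 were lower in Ag+Costim than in Ag.

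Markers of other cells also moved with the groups. The 5 erythroid markers, led by Hba-a1, summed to 986.3, 2637, 625.2, 6373 and 1243 CPM in Ag libraries 1 to 5, to between 14.5 and 222.1 CPM in Ag+Costim, and to 2068 and 149.6 CPM in Naive, and all 5 were lower in Ag+Costim than in Ag. The 6 B cell markers summed to 1566 ± 271.7 CPM in Ag, 777.1 ± 251.7 CPM in Ag+Costim and 1053 ± 8.06 CPM in Naive, nearly all of it Ighm, whereas the defining marker Ms4a1 was at or below 0.144 CPM in both Naive libraries and reached 21.2 CPM in Ag and 12.2 CPM in Ag+Costim. Cd79b was at 27.0 ± 2.35 CPM in Naive, 70.7 ± 4.69 CPM in Ag and 18.6 ± 4.76 CPM in Ag+Costim. Of the 6 genes, 4 were lower in Ag+Costim than in Ag, 5 were higher in Ag than in Naive, and in Ag+Costim against Naive 4 were higher and Cd79b was lower (-0.54 on the log2 scale, edgeR adjusted p = 0.0399). Ebf1 had 0 counts in Naive. Of the other 5 genes, 4 were higher in Ag than in Naive, and 3 were higher in Ag+Costim than in Naive. Of all genes tested, 26.5% were lower and 26.6% higher in Ag+Costim than in Ag. Against Naive, 24.2% were higher in Ag, and 26.9% were higher and 25.4% lower in Ag+Costim. The 7 myeloid markers, led by Lyz2, summed to 135.0 ± 49.1, 117.3 ± 28.0 and 58.9 ± 36.8 CPM in Ag, Ag+Costim and Naive, with 2 higher in Ag+Costim than in Ag. The 4 NK cell markers, led by Eomes, a gene that activated CD8+ T cells also express, summed to 43.9 ± 7.35, 102.3 ± 11.6 and 30.3 ± 2.85 CPM in Ag, Ag+Costim and Naive. Eomes was higher in Ag+Costim than in Ag (1.69 on the log2 scale), while Klrb1c and Klra8 were lower (-3.02 and -3.17). No marker was at 0 in all libraries, the sums of Cd4 and Foxp3 averaged 1.39, 1.25 and 0.352 CPM, and the part of these cells in the results below was not tested. Because Ag library 4 stood apart in depth and in erythroid RNA, the contrasts of the 9 genes with Ag are also given without it. In bulk samples such as these, fewer cells that express a gene and less RNA per cell cannot be told apart.

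All 9 genes differed between the Ag+Costim and Ag libraries. By edgeR's quasi-likelihood test with Benjamini-Hochberg adjustment over 18817 genes, 6 were higher and 3 were lower in Ag+Costim at an adjusted p below 0.05, against a background of 26.6% of all genes higher and 26.5% lower, 53.1% in all. The 6 were Nfatc1, Nfatc2, Nfatc3, Ppp3ca, Ppp3cb and Ppp3r1, and the 3 were Nfat5, Ppp3cc and Rcan1. The libraries of the 2 groups did not overlap for any of the 9 genes, as for 39.8% of all genes tested. The median log2 fold change of the 9 was 0.85, against -0.05 over all genes. Between Ag and Naive, Ppp3cc and Rcan1 were higher and Nfatc3, Ppp3ca, Ppp3cb and Ppp3r1 were lower in Ag, making 2 higher against a background of 24.2% and 4 lower against 22.5%, 46.7% in all, with a median of -0.35. The libraries did not overlap for 7 of the 9, 3 of them higher and 4 lower in Ag, as for 56.4% of all genes, 27.2% higher. Between Ag+Costim and Naive, Nfatc1 and Ppp3r1 were higher and Nfat5 was lower, against backgrounds of 26.9% and 25.4%, 52.3% in all. The libraries did not overlap for 4 of the 9, as for 66.0% of all genes. These contrasts share libraries, so a level that is high or low in Ag enters both contrasts with Ag, and their values are set side by side only. With upper-quartile scaling, which moved the median of all genes between Ag+Costim and Ag from -0.05 to -0.24 and the calls to 4056 higher and 6338 lower in place of 5006 and 4979, 6 of these genes were again called higher and 3 lower.

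**Figure D1:**
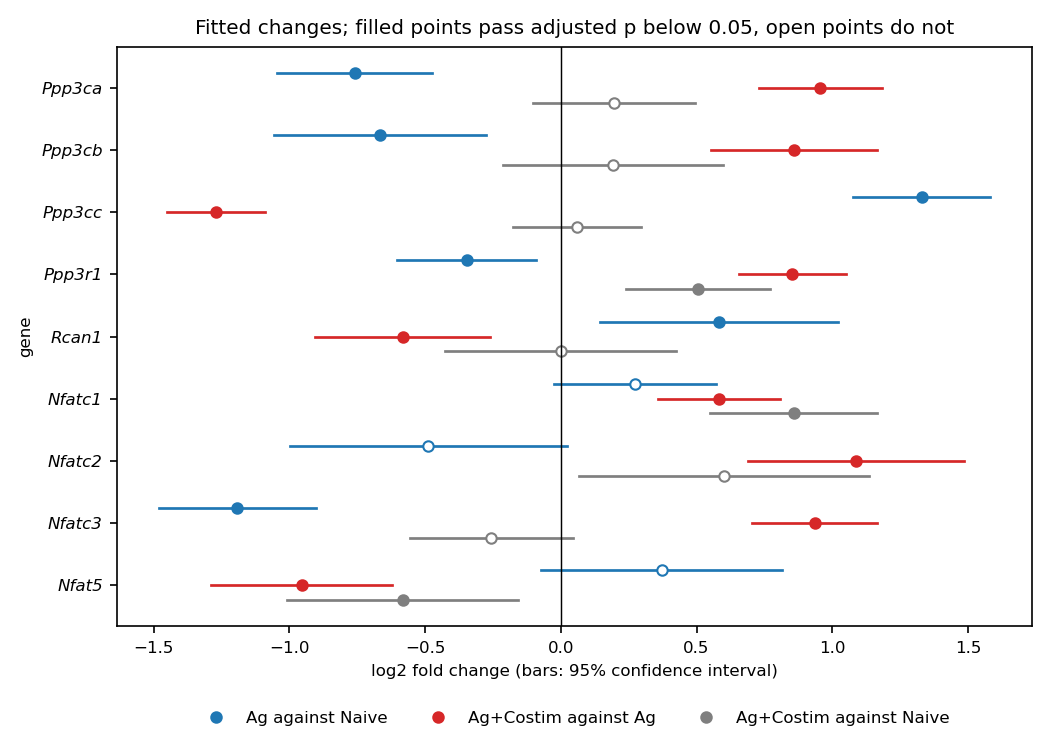
Fitted log2 fold changes of the 9 genes (y axis) in 3 comparisons (x axis, log2 scale), with 95% confidence intervals as bars; filled points passed an adjusted p of 0.05 in edgeR's test and open points did not. All red points (Ag+Costim against Ag) are filled, with Ppp3cc furthest to the left at -1.27 and Nfatc2 furthest to the right at 1.09.

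Upstream of calcineurin, genes for calcium release and entry, taken as 1 list, were mostly lower in activated cells than in Naive. Within the list, the calcium sensors and channel subunits of entry went in both directions. Of 9 genes for calcium release and entry (the ER calcium sensors Stim1 and Stim2, the channel subunits Orai1 to Orai3, the IP3 receptors Itpr1 to Itpr3, and Plcg1, which makes IP3), 6 were lower and 2 higher in Ag than in Naive, against backgrounds of 22.5% and 24.2%, with a median log2 fold change of -1.11 against 0.02 for all genes. With a correction of the counts for gene length the median was -0.67, again with 6 lower and 2 higher, and without either Naive library 1 was higher. Itpr1 fell from 68.4 ± 6.50 CPM in Naive (n = 2) to 11.9 ± 5.10 CPM in Ag (n = 5), by 2.53 on the log2 scale (SE 0.28, edgeR adjusted p = 1.12e-05). Stim1 fell from 234.7 CPM to 68.9 ± 9.62 CPM (log2 fold change -1.77, SE 0.13, edgeR adjusted p = 3.53e-07), and Itpr3 and Itpr2 fell by 1.58 and 1.27 on the same scale. Between Ag+Costim and Ag, 3 of the 9 were higher and 3 lower, near the backgrounds of 26.6% and 26.5%, with a median of -0.08. With the gene length correction 2 were higher and 5 lower, with a median of -0.43, and with upper-quartile scaling 3 and 4, with -0.28, while without Ag library 4 the median was 0.03. Itpr1 rose to 37.3 ± 8.72 CPM in Ag+Costim (log2 fold change 1.65, SE 0.24, edgeR adjusted p = 5.24e-05) and Itpr3 to 24.2 ± 5.21 CPM (0.70, adjusted p = 0.00536), while Itpr2 fell by 1.32 and Orai3 by 0.79. The call of Itpr3 was lost with a correction for gene length (log2 fold change 0.35, adjusted p = 0.0723). Against Naive, 6 of the 9 were lower and 1, Stim2 at a log2 fold change of 1.20, was higher in Ag+Costim, against backgrounds of 25.4% and 26.9%, with Itpr2 lowest at -2.59. The number lower was 4 without Naive library 2 and 5 without Naive library 1 or with the gene length correction.

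Calmodulin, which carries the calcium signal to calcineurin, is encoded by several genes, and values are given for Calm2 and Calm3, both higher in Ag than in Naive. Their log2 fold changes were 1.24 for Calm2 and 1.61 for Calm3, and the levels of Calm3 were 67.1 ± 4.69 CPM in Naive and 204.4 ± 15.6 CPM in Ag. Both were also higher in Ag+Costim than in Naive, by 0.78 and 1.97. Between Ag+Costim and Ag, Calm3 rose by 0.36 (SE 0.08, edgeR adjusted p = 0.00126) and Calm2 fell by 0.46 on the log2 scale (SE 0.11, adjusted p = 0.00308). The call of Calm3 was lost with upper-quartile scaling (0.16, adjusted p = 0.089) and that of Calm2 with the gene length correction (-0.22, adjusted p = 0.106).

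The catalytic subunit genes moved in opposite directions. Ppp3ca, which encodes the Aα subunit, lies on chromosome 3 (136670124-136937727, plus strand, mm10). Its levels were 62.2 and 67.7 CPM in Naive, 35.7, 36.7, 35.2, 46.9 and 37.5 CPM in Ag libraries 1 to 5, and 75.0, 84.9, 76.6, 61.2 and 74.4 CPM in Ag+Costim libraries 1 to 5. No Ag library reached the lowest library of either other group, and Ag+Costim and Naive overlapped. In Ag+Costim the level was 1.94-fold that of Ag (log2 fold change 0.96, SE 0.10, 95% confidence interval 0.73 to 1.18, edgeR adjusted p = 4.67e-06), and in Ag it was lower than in Naive by 0.76 on the log2 scale (SE 0.13, adjusted p = 0.000406). Without Ag library 4 these values were 1.04 and -0.84, and with the gene length correction 0.62 and -0.30. Ag+Costim against Naive gave 0.20 (interval -0.10 to 0.50, adjusted p = 0.246), and passed with the gene length correction (0.32, adjusted p = 0.0223).

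Ppp3cb, which encodes the Aβ subunit, lies on chromosome 14 (20499364-20546573, minus strand). The levels were 43.7 and 40.8 CPM in Naive, 24.8, 20.9, 27.1, 36.7 and 23.6 CPM in Ag, and 55.9, 53.5, 45.2, 42.2 and 44.4 CPM in Ag+Costim. As with Ppp3ca, the Ag libraries lay below all others, with library 4 the highest of them. Ppp3cb rose by 0.86 on the log2 scale in Ag+Costim against Ag (SE 0.14, interval 0.55 to 1.16, edgeR adjusted p = 0.000179), by 1.00 without Ag library 4 and by 0.51 with the gene length correction, and was lower in Ag than in Naive by 0.67 (SE 0.18, adjusted p = 0.0084), with -0.81 without Ag library 4. The call against Naive was lost with the gene length correction (-0.27, adjusted p = 0.216) and without Naive library 1 (-0.62, adjusted p = 0.0715). Ag+Costim against Naive gave 0.19 (interval -0.21 to 0.60).

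Ppp3cc, which encodes the Aγ subunit, went the other way. It lies on chromosome 14 (70217865-70289471, minus strand) and shares exonic bases with Gm49417 on the opposite strand, and whether strand was used in counting is not given in the sources used here. Its levels were 64.1 and 71.6 CPM in Naive, 166.6, 185.4, 179.9, 143.5 and 177.3 CPM in Ag, and 72.9, 75.9, 68.4, 67.2 and 69.1 CPM in Ag+Costim. The lowest Ag library, at 143.5 CPM, lay above the highest library of the other groups, at 75.9 CPM. Ppp3cc was higher in Ag than in Naive by 1.33 on the log2 scale (SE 0.12, interval 1.08 to 1.58, edgeR adjusted p = 1.47e-06) and fell by 1.27 in Ag+Costim against Ag (SE 0.08, interval -1.45 to -1.09, adjusted p = 6.93e-08), 2.41-fold. Without Ag library 4 these were 1.38 and -1.33. Ag+Costim against Naive gave 0.06 (interval -0.18 to 0.29, adjusted p = 0.667).

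Levels of different genes were compared as FPKM (fragments scaled by transcript length and library size), which allows genes of different length to be set side by side. The 3 catalytic genes together had 98.3 ± 3.44 FPKM in Ag, 63.7 ± 5.42 in Ag+Costim and 71.6 ± 4.50 in Naive. Ppp3cc made up 81.0, 84.4, 83.3, 73.3 and 83.1% of this sum in the Ag libraries, 48.0, 49.2, 49.7, 51.6 and 50.7% in the Ag+Costim libraries, and 49.9 and 51.6% in the Naive libraries. Ag thus stood apart from both other groups, which overlapped. Ppp3ca contributed 9.67 ± 1.93% in Ag, 25.6 ± 1.72% in Ag+Costim and 25.6 ± 0.978% in Naive, and Ppp3cb contributed 9.28 ± 2.59%, 24.6 ± 2.22% and 23.6 ± 2.17%. These sums cover all transcripts of a gene, coding or not. Ppp3cc-202, which has no coding sequence, held a mean of 28.0% of the Ppp3cc FPKM in Ag, 31.1% in Ag+Costim and 21.1% in Naive. The shares are thus of RNA from each gene and not of coding RNA alone.

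**Figure D2:**
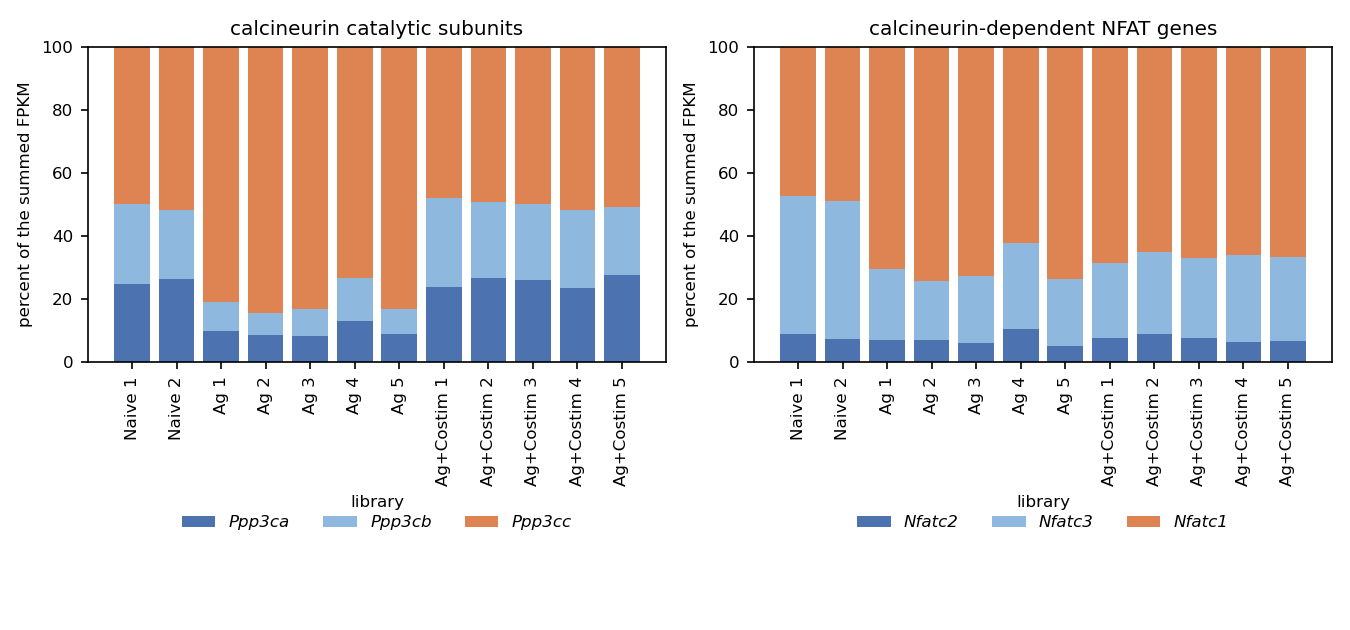
Left, the share of the summed FPKM of the 3 calcineurin catalytic genes held by each (y axis, percent) in each of the 12 libraries (x axis); right, the same for Nfatc1, Nfatc2 and Nfatc3. Ppp3cc takes between 73.3 and 84.4% in the 5 Ag libraries and between 48.0 and 51.6% in the other 7 libraries, and Nfatc1 takes 47.4 and 48.8% of its sum in the Naive libraries against 62.4% or more in the rest.

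Ppp3r1, the gene of the regulatory B subunit, lies on chromosome 11 (17159263-17200375, plus strand) and shares exonic bases with Wdr92 on the same strand, so counts from the shared stretch may belong to either gene. Its levels were 61.1 and 62.0 CPM in Naive, 47.7, 44.7, 51.4, 41.3 and 56.8 CPM in Ag, and 87.1, 95.1, 91.3, 80.8 and 82.6 CPM in Ag+Costim. The 3 groups did not overlap, with Ag lowest and Ag+Costim highest. Ppp3r1 rose by 0.85 on the log2 scale in Ag+Costim against Ag (SE 0.09, interval 0.66 to 1.05, edgeR adjusted p = 3.89e-06) and was 0.51 above Naive (SE 0.12, adjusted p = 0.00369). It was lower in Ag than in Naive by 0.35 (SE 0.12, adjusted p = 0.0281), a call that 6 of 21 alternative settings did not keep, among them those without Ag library 2 (adjusted p = 0.0535) or without either Naive library. Without Ag library 4 the values were 0.80 for Ag+Costim against Ag and -0.30 for Ag against Naive. Its FPKM divided by the summed FPKM of the catalytic genes was 0.18 ± 0.02 in Ag, 0.47 ± 0.03 in Ag+Costim and 0.36 ± 0.02 in Naive, again with no overlap between groups. That sum includes Ppp3cc-202, which has no coding sequence. The call against Naive was lost on FPKM values (0.19, limma adjusted p = 0.131).

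Rcan1, the calcineurin inhibitor, was at a low level in all groups, with 5.33 ± 0.887 FPKM in Naive, 7.08 ± 1.44 FPKM in Ag and 4.60 ± 0.468 FPKM in Ag+Costim. It lies on chromosome 16 (92391953-92470867, minus strand). The levels were 12.6 and 9.85 CPM in Naive, 13.8, 18.0, 15.7, 13.9 and 22.4 CPM in Ag, and 11.0, 12.9, 10.1, 11.6 and 10.4 CPM in Ag+Costim. The Ag libraries lay above all others, by a narrow margin for Ag libraries 1 and 4. Rcan1 fell by 0.58 on the log2 scale in Ag+Costim against Ag (SE 0.15, interval -0.91 to -0.26, edgeR adjusted p = 0.00492) and was 0.58 higher in Ag than in Naive (SE 0.20, adjusted p = 0.0311). The second call was lost in 8 of 21 alternative settings, among them those without Ag library 2 (0.55, adjusted p = 0.0535), Ag library 5 (0.46, adjusted p = 0.051) or Naive library 2 (0.41, adjusted p = 0.277), and without Ag library 4 it was 0.64 (adjusted p = 0.0172), beside -0.64 for Ag+Costim against Ag. Ag+Costim against Naive gave 0.00 (interval -0.43 to 0.42).

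The Rcan1 gene has an upstream promoter and an internal promoter, the latter known for its cluster of NFAT sites, and their sequences are shown because the transcripts in these cells used only the first to any extent. Transcripts with the upstream first exon (Rcan1-202 and Rcan1-206) held 99.1 ± 1.49% of Rcan1 counts in Ag, 99.9 ± 0.194% in Ag+Costim and 99.7 ± 0.452% in Naive. The transcript that starts at the internal first exon, Rcan1-201, held 3.50% in Ag library 1 and at most 0.745% in every other library. The 250 bases before each start are printed 5′ to 3′ on the minus strand from RefSeq (GRCm38.p6), with the NFAT core motif GGAAA, or its reverse complement TTTCC, in capitals. The upstream promoter lies at chr16:92466170-92466419 and the internal promoter at chr16:92400079-92400328.
Rcan1 upstream promoter: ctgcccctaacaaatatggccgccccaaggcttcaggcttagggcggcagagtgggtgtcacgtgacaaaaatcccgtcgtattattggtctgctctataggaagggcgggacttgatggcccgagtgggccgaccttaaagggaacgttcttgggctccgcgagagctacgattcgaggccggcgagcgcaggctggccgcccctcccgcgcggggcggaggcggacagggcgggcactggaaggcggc
Rcan1 internal promoter: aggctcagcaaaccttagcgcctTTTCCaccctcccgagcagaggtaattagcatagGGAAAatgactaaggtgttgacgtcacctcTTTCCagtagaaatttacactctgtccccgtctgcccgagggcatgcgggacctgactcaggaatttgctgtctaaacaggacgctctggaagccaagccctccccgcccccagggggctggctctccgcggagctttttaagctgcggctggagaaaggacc
The internal promoter held 3 matches and the upstream promoter held 0. Of 32851 RefSeq promoters of this length, 55.6% held at least 1 match on either strand and 6.39% held 3 or more. RefSeq promoters were found for 6 of the 9 genes, 9 promoters in all, of which 6 held the motif. Those were the promoters of Nfat5 with 2 matches, Nfatc2 with 1 and 3, Nfatc3 with 1, Ppp3cb with 3 and the internal one of Rcan1, while the second promoter of Nfatc3 and that of Ppp3r1 held 0. A match is a description of the letters and not a binding site.

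**Figure D3:**
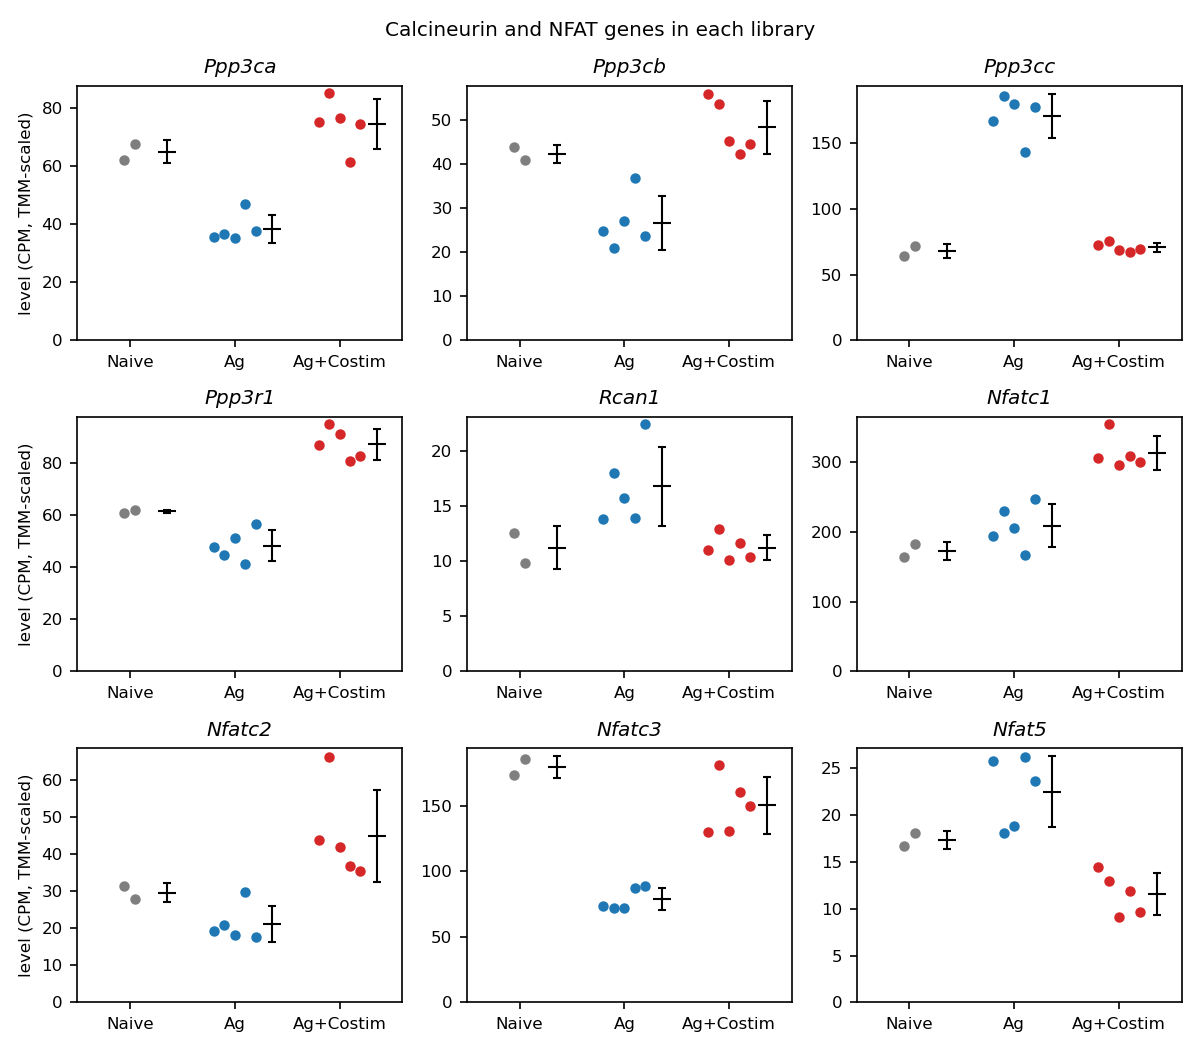
Level of each of the 9 genes (y axis, TMM-scaled CPM, from 0) in each library (points) of the Naive, Ag and Ag+Costim groups (x axis), with the group mean ± SD in black beside the points. Ppp3cc and Rcan1 are highest in Ag, Nfatc3, Ppp3ca, Ppp3cb and Ppp3r1 are lowest there, and Nfatc1 is highest in Ag+Costim.

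Genes of proteins that bind calcineurin were measured beside it. Of 5 genes (Cabin1 and Akap5, an inhibitor and an anchor of calcineurin, Fkbp1a and Ppia, the receptors of FK506 and cyclosporin A, and Chp1, a calcineurin-like inhibitor), 2 rose and 0 fell in Ag+Costim against Ag, beside backgrounds of 26.6% and 26.5%, and 2 rose and 2 fell with upper-quartile scaling or the gene length correction. The 2 were Cabin1 (log2 fold change 0.59, SE 0.09, edgeR adjusted p = 0.00013) and Chp1 (0.50, SE 0.08, adjusted p = 0.000162). In Ag against Naive, Fkbp1a and Ppia were higher by 1.32 and 0.58, and Akap5 and Cabin1 were lower by 1.39 and 0.69. Akap5 was also lower in Ag+Costim than in Naive, at -1.98, with Fkbp1a at 1.06, Ppia at 0.76 and Chp1 at 0.36. Without Naive library 2, Akap5 and Ppia lost their calls between Ag and Naive (-0.82 and 0.48, adjusted p = 0.148 and 0.0734), and the call of Cabin1 there was lost with the gene length correction (-0.14).

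Of the NFAT genes that calcineurin acts on, Nfatc1 was the most abundant per length. In Naive it had 42.2 ± 3.32 FPKM, with Nfatc3 at 38.3 ± 2.18 FPKM overlapping it and Nfatc2 at 7.10 ± 0.466 FPKM. In Ag the values were 45.0 ± 6.12 for Nfatc1, 14.1 ± 1.86 for Nfatc3 and 4.43 ± 1.13 FPKM for Nfatc2, and in Ag+Costim 65.9 ± 5.23, 25.6 ± 3.00 and 7.41 ± 1.64 FPKM. Nfatc1 thus held 48.1 ± 1.02% of the summed FPKM of the 3 genes in Naive, 70.7 ± 4.91% in Ag and 66.7 ± 1.32% in Ag+Costim, with the shares in Ag and Ag+Costim overlapping and both above Naive. Nfatc3 held 43.8, 22.3 and 25.9% in the same order. The sum itself was 87.6 ± 5.04, 63.6 ± 5.74 and 99.0 ± 9.34 FPKM. Over all 9 genes in FPKM, the order in Naive was Nfatc1, Nfatc3 and Ppp3cc, of which each neighbouring pair overlapped, then Ppp3r1, then Ppp3ca and Ppp3cb, which overlapped, then Nfatc2, Rcan1 and Nfat5. In Ag, Ppp3cc (79.6 ± 5.04 FPKM) came first, followed by Nfatc1, Ppp3r1 and Nfatc3, and each neighbouring pair from Nfatc3 down to Nfat5 overlapped. In Ag+Costim, Nfatc1 came first, and Ppp3cc (31.7 ± 1.93), Ppp3r1 (29.8 ± 1.83) and Nfatc3 overlapped behind it.

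Nfatc2 encodes NFATc2, also called NFAT1, and lies on chromosome 2 (168476410-168601657, minus strand). Its levels were 31.4 and 27.8 CPM in Naive, 19.2, 20.9, 18.3, 29.7 and 17.7 CPM in Ag, and 43.9, 66.1, 42.0, 36.9 and 35.6 CPM in Ag+Costim. All Ag+Costim libraries were above all others, and Ag library 4 lay within the Naive range while the other 4 Ag libraries lay below it. Nfatc2 rose by 1.09 on the log2 scale in Ag+Costim against Ag (SE 0.18, interval 0.69 to 1.49, edgeR adjusted p = 0.000218), 2.13-fold, by 1.24 without Ag library 4 and by 0.64 on log2(FPKM + 1) values. Ag against Naive gave -0.49 (SE 0.24, adjusted p = 0.108), which passed the threshold in 5 of 21 alternative settings, without Ag library 4 (-0.64, adjusted p = 0.022), without Ag+Costim library 2 (-0.49, adjusted p = 0.0451) and in the 3 settings on FPKM values (-0.60 to -0.70), and was -0.018 with the gene length correction. Ag+Costim against Naive gave 0.60 (interval 0.07 to 1.14, adjusted p = 0.0571), and passed in 5 of 21 alternative settings, DESeq2 (adjusted p = 0.0392) and the gene length correction (0.75) among them, while on log2(FPKM + 1) values it was 0.036.

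The 2 main protein-coding transcripts of Nfatc2, Nfatc2-202 and Nfatc2-204, end differently, and which of them was used differed between the groups. Nfatc2-204 contains an additional exon of 86 bases (chr2:168486686-168486771) that brings an in-frame stop, and Nfatc2-202 skips it and ends its reading frame in the next exon, so the proteins differ in their C-terminal ends, with coding lengths of 2769 and 2781 bases. The last coding segment of each is printed because these are the stretches that tell the proteins apart, 5′ to 3′ on the minus strand of mm10 with the stop codon in capitals, from chr2:168486728-168486771 for Nfatc2-204 and chr2:168480194-168480249 for Nfatc2-202.
Nfatc2-204 last coding segment: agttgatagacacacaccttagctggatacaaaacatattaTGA
Nfatc2-202 last coding segment: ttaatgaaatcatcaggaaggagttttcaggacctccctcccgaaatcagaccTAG
Nfatc2-202 held 0.458, 0, 0, 0 and 0% of the Nfatc2 counts in Ag libraries 1 to 5, 47.2, 52.5, 47.5, 84.4 and 78.0% in Ag+Costim libraries 1 to 5, and 23.0 and 70.5% in Naive. Nfatc2-204 held 75.4, 74.2, 78.6, 80.4 and 76.5% in Ag, 44.2, 41.2, 42.0, 2.71 and 5.55% in Ag+Costim, and 49.0 and 1.81% in Naive. In these transcript counts Nfatc2-202 was thus at or near 0 in Ag and present in every library of the other groups. Its share there varied widely between libraries. An exon-level measure given below put inclusion of the exon at 0.899 in Ag, which leaves some skipping there. The shares rest on 737 to 934 Nfatc2 counts in each Ag library and 1325 to 2984 in the others, with 4 counts of Nfatc2-202 in all Ag libraries together.

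Tested on the log2 odds of each transcript's share with limma over 41844 transcripts, Nfatc2-202 differed by 10.8 between Ag+Costim and Ag, with Ag+Costim higher (SE 0.84, adjusted p = 4.62e-05), and by -9.79 between Ag and Naive (SE 1.12, adjusted p = 0.00105). These sizes depend on the pseudocount of 0.5, since the share in Ag was 0 in 4 of 5 libraries. Nfatc2-204 did not pass (-3.86, SE 1.20, adjusted p = 0.083). A retained-intron transcript, Nfatc2-206, held 21.2, 21.7, 16.9, 17.5 and 17.6% in Ag, 4.75, 3.05, 6.48, 4.73 and 8.83% in Ag+Costim and 15.4 and 16.1% in Naive. It was lower in Ag+Costim than in Ag (-2.07, SE 0.32, adjusted p = 0.00361) and than in Naive (-1.75, adjusted p = 0.029, a call lost without either Naive library), and all 5 Ag+Costim libraries lay below the rest. Annotated protein-coding transcripts accordingly held 78.1 ± 2.67% of Nfatc2 counts in Ag, 89.3 ± 3.66% in Ag+Costim and 72.2 ± 0.108% in Naive. The retained-intron transcript Nfatc2-207 held 2.92 ± 0.855%, 4.74 ± 1.64% and 10.4% in the same order, and was lower in Ag than in Naive (-1.94, adjusted p = 0.0431). Nfatc2-202 and Nfatc2-207 were the 2 member transcripts called between Ag and Naive. With the replicate block, without Ag library 5, or without Ag+Costim library 1, 2, 3 or 5, only 1 member transcript was called there.

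The exon was also measured by the study's separate exon-level tool, Whippet, which gives a single inclusion level (Psi, 0 to 1) per group, so that no test was possible. Inclusion of the 86-base exon was 0.899 in Ag and 0.582 in Ag+Costim. The direction was that of the transcript shares, but the sizes differ, as the transcript shares leave at most 0.458% of Nfatc2 counts in any Ag library to Nfatc2-202. In the same gene the Psi of a 516-base internal exon was 0.833 and 0.967, and an alternative acceptor next to it had 0.785 and 0.955. The adjoining polyadenylation segments of Nfatc2 at chr2:168519098-168519552 and chr2:168518203-168519097 had 0.437 and 0.245, and 0.558 and 0.757. Differences over 0.1 were found at 11 of 98 member nodes, 11.2%, against 7.39% of 115403 nodes of all genes.

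**Figure D4:**
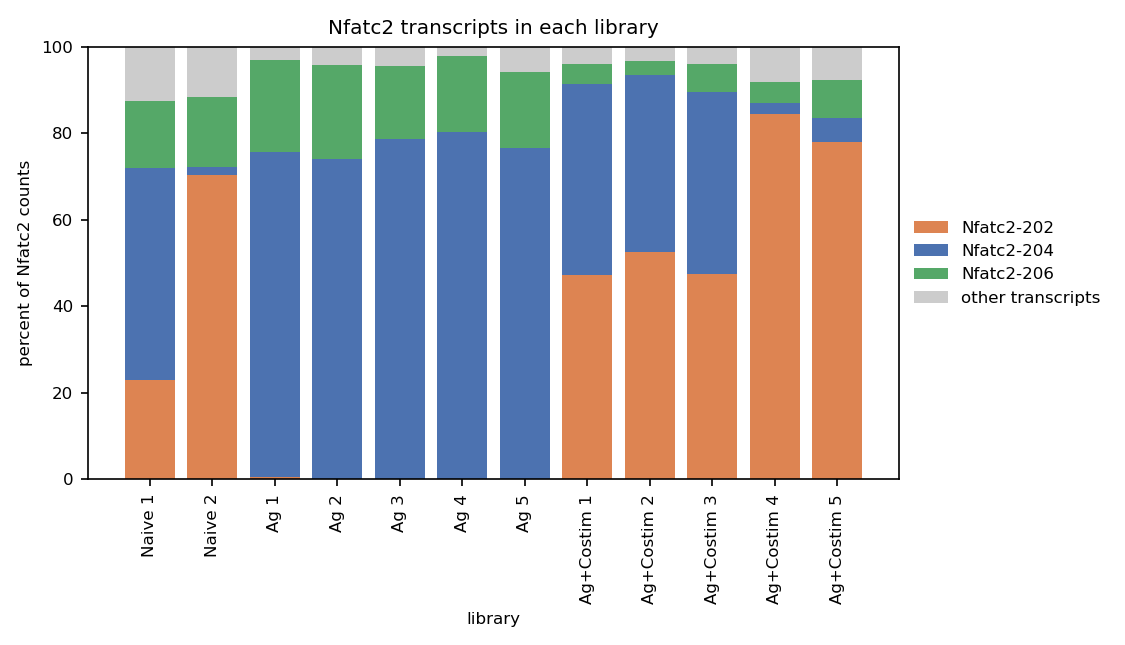
Share of the Nfatc2 counts (y axis, percent) held by 3 named transcripts and the rest, in each of the 12 libraries (x axis). Nfatc2-202 (orange) is at or near 0 in the 5 Ag libraries and takes between 23.0 and 84.4% in the other 7, and the retained-intron transcript Nfatc2-206 (green) is narrowest in Ag+Costim.

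Nfatc3 encodes NFATc3, also called NFAT4. It lies on chromosome 8 (106058840-106130537, plus strand) and shares exonic bases with Esrp2 on the opposite strand. Its levels were 173.9 and 185.9 CPM in Naive, 73.3, 72.5, 72.1, 87.6 and 88.6 CPM in Ag, and 130.1, 181.6, 130.8, 161.0 and 149.8 CPM in Ag+Costim. The highest Ag library, at 88.6 CPM, lay below the lowest of the others, at 130.1 CPM, and Naive and Ag+Costim overlapped. Nfatc3 fell from Naive to Ag by 1.19 on the log2 scale (SE 0.13, interval -1.48 to -0.90, edgeR adjusted p = 1.10e-05), and rose from Ag to Ag+Costim by 0.93 (SE 0.11, interval 0.70 to 1.17, adjusted p = 7.05e-06). Without Ag library 4 these were -1.23 and 0.97, and with the gene length correction -0.67 and 0.63. Ag+Costim against Naive gave -0.26 (interval -0.55 to 0.04, adjusted p = 0.137), and ranged from -0.59 to -0.04 over 21 alternative settings. It passed in 5 of these, among them log2(FPKM + 1) values (-0.57, limma adjusted p = 0.00268) and upper-quartile scaling (-0.41, adjusted p = 0.0216).

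The main protein-coding transcript, Nfatc3-201, held 93.3 ± 2.41% of Nfatc3 counts in Ag, 93.1 ± 3.75% in Ag+Costim and 88.2% in Naive, with Ag and Ag+Costim overlapping. The Whippet table nevertheless gave different Psi at its 3′ end. The first of 3 adjoining polyadenylation segments had 0.347 in Ag and 0.542 in Ag+Costim, the next 0.003 and 0.118, and the last, of 2094 bases, 0.651 and 0.341. These are group values with no replicate.

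Nfat5, the osmotic stress factor, lies on chromosome 8 (107293470-107379517, plus strand). Its levels were 16.7 and 18.0 CPM in Naive, 25.7, 18.1, 18.8, 26.1 and 23.6 CPM in Ag, and 14.4, 12.9, 9.09, 11.9 and 9.61 CPM in Ag+Costim. The groups did not overlap, although the lowest Ag library and the highest Naive library were close. Nfat5 fell in Ag+Costim against Ag by 0.95 on the log2 scale (SE 0.15, interval -1.29 to -0.62, edgeR adjusted p = 0.000149), or by 0.90 without Ag library 4, and against Naive by 0.58 (SE 0.20, adjusted p = 0.0243). The second call was lost in 5 of 21 alternative settings, among them those without Ag+Costim library 5 (-0.52, adjusted p = 0.0506) or either Naive library, and with the gene length correction the value was -0.09. Ag against Naive gave 0.37 (interval -0.07 to 0.82, adjusted p = 0.156), 0.31 without Ag library 4, and 1.06 with that correction (adjusted p = 0.00057).

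The share of Nfat5 counts assigned to protein-coding transcripts varied widely between libraries of a group. All protein-coding transcripts together held 0, 0, 1.73, 46.7 and 8.26% in Ag libraries 1 to 5, 15.9, 42.4, 0, 0 and 0.270% in Ag+Costim, and 26.1 and 1.63% in Naive. The rest was assigned mainly to Nfat5-206, annotated as a target of nonsense-mediated decay (43.7 ± 17.3% in Ag, 37.4 ± 15.4% in Ag+Costim), and to the retained-intron transcript Nfat5-212 (34.6 ± 20.1% and 39.2 ± 8.77%). The spread between libraries of a group was larger than any difference between groups. Whippet gave a Psi of 0.483 in Ag and 0.666 in Ag+Costim for an exon of 54 bases at chr8:107295581-107295634, and of 0.64 and 0.80 for the second of the adjoining start segments before it.

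Of 6 genes that NFAT5 is known to switch on in osmotic stress (the osmolyte transporters Slc5a3, Slc6a6, Slc6a12 and Slc38a2, the aldose reductase gene Akr1b3 and the chaperone Hspa4l), 4 rose and 0 fell in Ag+Costim against Ag, beside backgrounds of 26.6% and 26.5%. One of the 4, Slc6a12, passed the filter on low counts only through its counts in Ag+Costim, and of the other 5 genes 3 rose and 0 fell. Without Ag+Costim library 1 or 2 Slc6a12 was not tested. With upper-quartile scaling, or without Ag library 4, 4 rose and 1 fell, and with the gene length correction 2 rose and 1 fell. The median log2 fold change was 0.50, or 0.46 over the 5 genes other than Slc6a12, against -0.05 for all genes, and 0.14 over the 6 with that correction. Slc5a3, the myo-inositol transporter, rose from 2.18 ± 0.971 to 4.68 ± 1.05 CPM (log2 fold change 1.11, SE 0.28, edgeR adjusted p = 0.0043), Slc38a2 by 0.54 and Slc6a6 by 0.46. Slc6a12 had 0 counts in all Ag and Naive libraries and 139 counts in all in Ag+Costim, from 0 to 1.66 CPM, at least 8.16-fold higher than the floor of 3 counts per library in Ag. The calls of Slc6a6 and Slc38a2 were lost with the gene length correction (0.10 and 0.18). In Ag against Naive, Hspa4l and Akr1b3 were higher by 1.29 and 0.55 and Slc5a3 and Slc38a2 were lower by 1.07 and 0.63, 2 in each direction against backgrounds of 24.2% and 22.5%, with a median of 0.01. With the gene length correction 3 were higher and 0 lower there, with a median of 0.21, and without either Naive library 2 were higher and 1 lower. In Ag+Costim against Naive, 4 were higher and 0 lower, Hspa4l at 1.36, Slc6a6 at 0.49, Akr1b3 at 0.44 and Slc6a12 at least 10.3-fold, against backgrounds of 26.9% and 25.4%, and of the 5 genes other than Slc6a12 3 were higher and 0 lower. Without Naive library 1 the number higher was 3 and without Naive library 2 it was 2, and the call of Slc6a12 was lost in both cases.

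Nfatc1 encodes NFATc1, also called NFAT2, which T cells induce on activation through its own upstream promoter. It lies on chromosome 18 (80606205-80713071, minus strand). The levels were 163.9 and 182.1 CPM in Naive, 194.8, 230.5, 205.6, 167.5 and 247.3 CPM in Ag, and 306.0, 355.0, 295.8, 309.5 and 300.4 CPM in Ag+Costim. All Ag+Costim libraries were above all Ag and Naive libraries, and Ag and Naive overlapped through Ag library 4. Nfatc1 rose by 0.58 on the log2 scale in Ag+Costim against Ag (SE 0.10, interval 0.36 to 0.81, edgeR adjusted p = 0.00032), 1.50-fold, and by 0.51 without Ag library 4. The value was 0.39 with upper-quartile scaling, and the call was lost with the gene length correction (0.23, adjusted p = 0.074). Against Naive, Nfatc1 rose by 0.86 in Ag+Costim (SE 0.14, interval 0.55 to 1.17, adjusted p = 0.000226), and Ag against Naive gave 0.27 (interval -0.02 to 0.57, adjusted p = 0.122), which passed without Ag library 4 (0.34, adjusted p = 0.0252) and with the gene length correction (0.61, adjusted p = 0.00308).

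Nfatc1 is known for short transcripts that end at a proximal polyadenylation site and for long ones that end at a distal site. The proximal end (Nfatc1-201 and Nfatc1-206) held 55.6, 52.0, 49.5, 52.7 and 51.9% of the Nfatc1 counts in Ag, 46.3, 45.9, 47.3, 47.1 and 46.9% in Ag+Costim, and 32.8 and 25.8% in Naive. The 3 groups did not overlap, with Ag highest and Naive lowest. No single Nfatc1 transcript passed the test of usage in any comparison, and the sum over the transcripts of an end was not tested. Transcripts from the upstream first exon held 35.6 ± 6.89% in Ag, 34.5 ± 7.09% in Ag+Costim and 26.4 ± 9.59% in Naive, which overlapped. No Nfatc1 node differed by over 0.1 in the Whippet table.

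Among the transcripts of the calcineurin genes, those of Ppp3r1 passed the test of usage between Ag+Costim and Ag. Over all 9 genes, 44 of 66 transcripts were tested with limma, and 4 changed between Ag+Costim and Ag, 2 between Ag and Naive and 4 between Ag+Costim and Naive, against backgrounds of 7.20%, 4.25% and 9.46% of all transcripts. The coding transcript Ppp3r1-201 held 97.2 ± 1.11% of Ppp3r1 counts in Ag, 99.1 ± 0.312% in Ag+Costim and 96.4% in Naive (log2 odds difference between Ag+Costim and Ag 1.65, SE 0.33, adjusted p = 0.0132), and Ppp3r1-202 mirrored it. Ppp3r1 has only these 2 transcripts, so their 2 calls in a comparison, both with Ag and with Naive, stand for 1 change. Besides the transcripts of Nfatc2 and Ppp3r1 named, the remaining call was that of Nfatc3-203 between Ag+Costim and Naive (-2.02, adjusted p = 0.0378). Without either Naive library 0 of the 4 calls between Ag+Costim and Naive, that of Nfatc2-206 among them, were left, and the 2 between Ag and Naive became 1. Of the 25 transcripts that held at least 10% of their gene in a group, 5 had shares that did not overlap between Ag and Ag+Costim, which gives p = 0.00794 in a two-sided exact permutation test, the smallest that 5 against 5 libraries can give. They were Nfatc2-202, Nfatc2-204, Nfatc2-206, Ppp3r1-201 and Ppp3cb-206. The matching share over the transcripts of all genes was not computed, so this count is a description only. Ppp3cb-206 held 17.8, 17.5, 11.6, 10.9 and 17.2% of Ppp3cb counts in Ag, 31.2, 20.7, 19.8, 26.3 and 22.5% in Ag+Costim, and 34.1 and 29.5% in Naive, but did not pass the limma test (0.85, SE 0.29, adjusted p = 0.111). The other Ppp3cb transcripts varied within groups, Ppp3cb-205 between 33.9 and 80.8% in Ag and Ppp3cb-202 between 2.75 and 48.4% in Ag+Costim. Ppp3ca-202 (94.1 ± 4.17, 96.9 ± 1.79 and 94.4% in Ag, Ag+Costim and Naive) and Ppp3cc-201 (55.9 ± 7.08, 60.0 ± 6.56 and 59.6%) overlapped between groups, and Rcan1-202 ranged from 0 to 67.6% in Ag and from 0 to 18.0% in Ag+Costim. The Whippet table held no node with a difference over 0.1 in Ppp3ca, Ppp3cb, Ppp3cc, Ppp3r1 or Rcan1.

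Of 4 other genes of these families, 3 were absent or nearly so. Ppp3r2 and Rcan2 had 0 counts in every library, which allows up to 3 counts in each, and Nfatc4 had 11 counts in all, in Ag+Costim. Rcan3, a relative of Rcan1, had 9.06, 9.36 ± 1.35 and 8.27 ± 1.31 CPM in Naive, Ag and Ag+Costim, with no call in any comparison. Ag+Costim against Ag gave -0.18 for Rcan3, and passed with upper-quartile scaling (-0.37), with the gene length correction (-0.41) and on log2(FPKM + 1) values (-0.60). For the 3 members whose group means ranged furthest (Ppp3cc, Nfatc3 and Nfatc2), the genes with the most alike pattern of log2 CPM over the 12 libraries were sought among 8446 protein-coding genes. For Ppp3cc they were Cotl1 (Pearson r = 0.99), Ms4a4c (0.98) and Surf1 (0.98), for Nfatc3 they were Mast3, Ammecr1l and Osbpl11 (0.99 each), and for Nfatc2 they were Nrd1, Clasp1 and Hcfc1 (0.97 each). These are descriptions over 12 libraries in 3 groups, in which the values of both genes come from the same library, with its depth and its cells. Cotl1, which encodes an actin-binding protein, had 121.4 ± 7.61, 667.9 ± 60.8 and 133.5 ± 21.6 CPM in Naive, Ag and Ag+Costim, and Mast3, a kinase gene, had 106.4 ± 0.465, 30.7 ± 3.98 and 75.7 ± 10.2 CPM.

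The kinases that oppose calcineurin on NFAT, and the scaffolds that compete with it, were lower in Ag than in Naive in 5 of 10 genes and higher in 2, against backgrounds of 22.5% and 24.2%. Homer2 and Lrrk2 had 0 counts in Naive, and of the other 8 genes 5 were lower and 1 higher, with a median log2 fold change of -1.12 against 0.02 for all genes. Over all 10 the median was -0.68, and -0.44 with the gene length correction, while without Ag library 3 or 4 only 9 were tested, with medians of -1.07 and -1.03. Without either Naive library 0 were higher. Homer3, a scaffold that competes with calcineurin for NFAT, fell by 3.07 on the log2 scale (SE 0.41, edgeR adjusted p = 4.36e-05), from 4.97 ± 1.20 to 0.600 ± 0.290 CPM, Dyrk2 by 1.77 and the casein kinase gene Csnk1e by 1.24. Lrrk2, a kinase held to restrain NFAT, had 0 counts in both Naive libraries and was at least 14.1-fold higher in Ag (0.877 ± 0.667 CPM), a call that was lost without either Naive library. Lrrk2 passed the filter on low counts only through the groups where it was high. Between Ag+Costim and Ag, 3 of the 10 were higher and 2 lower, near the backgrounds of 26.6% and 26.5%, with a median of 0.08, which became -0.12 with upper-quartile scaling and -0.21 with the gene length correction, with 3 higher and 3 lower in both. Gsk3a rose from 26.0 ± 3.15 to 68.4 ± 15.0 CPM (log2 fold change 1.40, SE 0.15, adjusted p = 3.93e-06), Gsk3b by 0.68 and Csnk1d by 0.50, and Dyrk1a fell by 0.54. The call of Gsk3b was lost on FPKM values (0.27, limma adjusted p = 0.147). In Ag+Costim against Naive, 5 were lower and 1 higher, against backgrounds of 25.4% lower and 26.9% higher. The values were Homer3 at -2.24, Dyrk2 at -2.15, Csnk1e at -1.08 and Lrrk2 at least 14.1-fold. Of the 8 genes other than Homer2 and Lrrk2, 5 were lower and 0 higher, with a median of -0.69. Without either Naive library the call of Lrrk2 was lost and 0 were higher.

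Downstream, NFAT target genes were mostly higher in Ag than in Naive and mostly lower in Ag+Costim than in Ag. Of 17 cytokine, receptor and transcription factor genes known as NFAT targets in T cells, 12 were higher and 1, Nr4a1, was lower in Ag than in Naive, against backgrounds of 24.2% and 22.5%. Leaving aside Il2, which had 0 counts in Naive, 11 of 16 were higher and 1 lower, with a median log2 fold change of 1.80 against 0.02 for all genes, and of 2.20 with Il2. The inhibitory receptor gene Ctla4 went from 1.01 ± 0.323 CPM in Naive to 142.5 ± 25.3 CPM in Ag (log2 fold change 7.14, SE 0.42, edgeR adjusted p = 7.38e-08), Lag3 rose by 6.08 and Pdcd1 by 5.71. The cytokine gene Il2 was at 0 in both Naive libraries and at least 88.0-fold higher in Ag, at 5.49 ± 0.989 CPM, and passed the filter on low counts only through the groups where it was high. Without Naive library 2, 11 of the 17 were higher and 0 lower. Between Ag+Costim and Ag, 10 of the 17 were lower and 4 higher, with a median of -0.61 against -0.05 for all genes, while backgrounds were 26.5% and 26.6%. Egr2 fell from 32.3 ± 4.13 to 4.72 ± 1.97 CPM (-2.77, SE 0.28, adjusted p = 2.08e-06) and Egr3 from 4.95 ± 1.48 to 0.750 ± 0.551 CPM (-2.71, SE 0.52, adjusted p = 0.000644), both early transcription factors, and Cd40lg, the CD40 ligand gene, fell by 2.01. Havcr2, which encodes the receptor TIM-3, rose from 3.80 ± 0.794 to 66.6 ± 12.3 CPM (4.14, SE 0.24, adjusted p = 2.77e-08). In Ag+Costim against Naive, 10 were higher and 4 lower, against backgrounds of 26.9% and 25.4%, with a median of 3.15, or 9 and 4 of 16 with a median of 2.71 when Il2 is left aside. The values were Lag3 at 7.67, Havcr2 at 7.63, Pdcd1 at 5.97 and Il2 at least 57.8-fold.

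**Figure D5:**
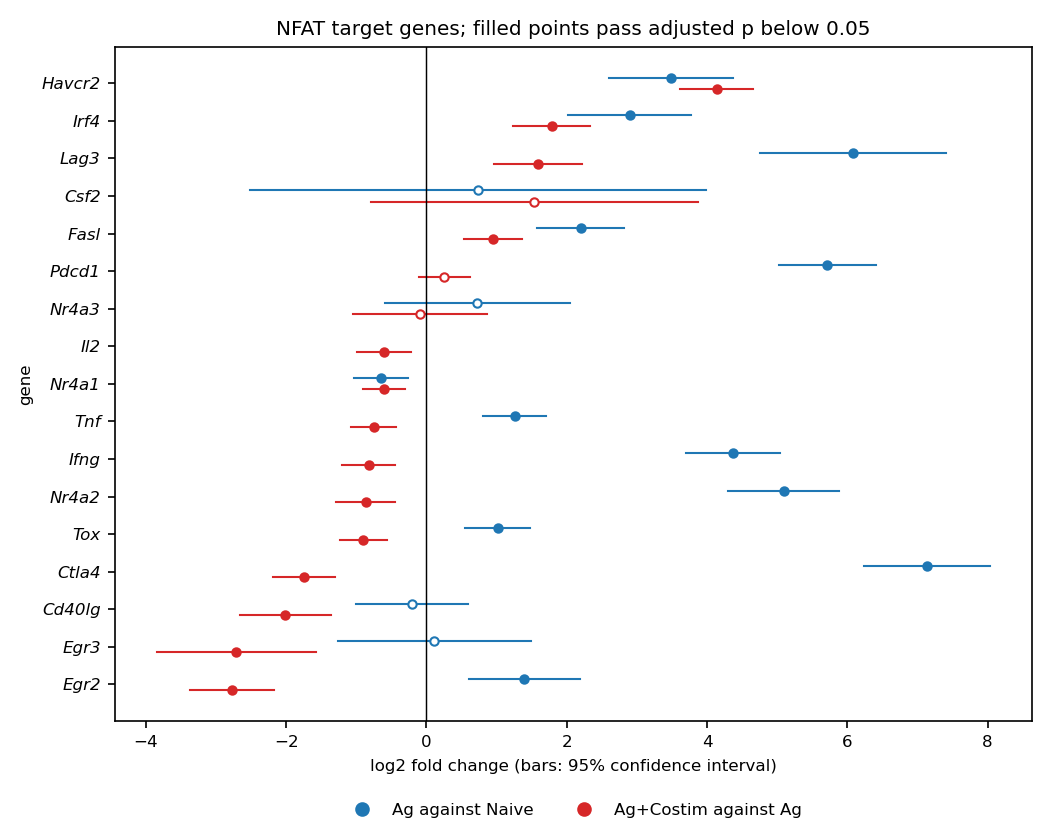
Log2 fold changes (x axis, with 95% confidence intervals) of 17 NFAT target genes (y axis, ordered by the change between Ag+Costim and Ag) in Ag against Naive (blue) and Ag+Costim against Ag (red); filled points passed an adjusted p of 0.05. Il2 against Naive is not drawn, as it had 0 counts in Naive. Most blue points lie to the right of 0, and 10 of the filled red points lie to the left, from Il2 to Egr2.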

How the data were processed

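Libraries were made with SMART-Seq v4 and Nextera XT and read in single reads of 100 bases. Per the methods and the submitters' processing notes, the authors aligned reads to mm10 with HISAT2 2.1.0, sorted them with SAMtools 1.9 and quantified genes and transcripts with StringTie 2.1.0, and their own tests used DESeq2 1.30.1 in R 4.0.5. The deposited counts are whole numbers that StringTie derives from coverage, 90.9 to 107 per 100 reads, so a count is not a read, and the floors of 3 counts cover counting error only. Confidence intervals are those of the fits and include the spread between libraries. The deposited FPKM values are per transcript, and were summed per gene. The deposited Whippet fractions (Psi) are single values per group, and the version of Whippet is not given in the sources used here. That table's difference and probability columns hold the authors' comparison and were not used. The percent aligned, 72.3 to 76.5 per library, was deposited by the sequencing core. Of 81881 gene entries, 55536 matched the GENCODE annotation, and the others were left out (0.0508 to 0.121% of counts).

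Groups came from the labels. Genes were tested with edgeR 4.0.16 (R 4.3.3; TMM, filterByExpr, robust quasi-likelihood fit over all 12 libraries, one term per group, 18817 genes, Benjamini-Hochberg, threshold 0.05). The fit was checked on simulated data. diffSpliceDGE, first chosen for transcript usage, made too many false calls in that check, so usage was tested with limma 3.58.1 on the log2 odds of a transcript's share (pseudocount 0.5), a choice made after seeing the data. FPKM values entered limma as log2(FPKM + 1), a scale that understates changes of low genes. DESeq2 1.42.0 served as an alternative. The closing part gives the effect of other scalings, filters, a length correction, a replicate block and leaving out each library. Members, gene lists and tests were chosen with earlier results of these data known. All 9 members are named in every comparison. Of each list, the counts and up to 4 called genes of largest fold change are named per comparison, with transcripts from 10% of their gene in a group and, for 3 members, the 3 genes of most alike pattern with a mean log2 CPM above 3. Promoter sequences are from RefSeq, and 6 of 9 symbols matched. The values of some genes of the lists are not reported here.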

Additional observations from a re-analysis of the deposited data

Results flagged for a closer look

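Among 68 groups of 5 values (levels of the 9 genes and shares of 25 transcripts in Ag and in Ag+Costim), 13 held a library whose gap to the others exceeded Dixon's critical value of 0.71, where chance gives about 1 group in 20. Among the levels, Ag library 4 was high for Nfatc2 (29.7 CPM, others 17.7 to 20.9) and Ppp3ca (46.9 CPM, others 35.2 to 37.5). Ag+Costim library 2 was high for Nfatc1 (355.0 CPM, others 295.8 to 309.5) and Nfatc2 (66.1 CPM, others 35.6 to 43.9).

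Among the shares of a gene's counts, Ag library 4 was the library apart in 5 groups. Nfat5-212 had 0% there (others 36.8 to 48.8%) and Nfat5-214 had 46.0% (others 0 to 8.26%). Ppp3cb-201 had 35.1% (others 0%), Ppp3cc-202 had 21.5% (others 34.0 to 37.4%) and Ppp3ca-202 had 86.8% (others 95.1 to 96.8%). Ag library 3 stood apart for Ppp3cb-202 (50.5%, others 0%) and Nfatc1-204 (15.8%, others 7.90 to 9.31%), Ag library 1 for Nfatc2-202 (0.458%, others 0%), and Ag+Costim library 5 for Nfatc1-203 (22.5%, others 7.37 to 11.0%). Ag library 4 was also the library with the lowest total count, 24006053, and the highest sum of erythroid markers, 6373 CPM, and their part in these values was not tested.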

How the results depend on the processing

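The numbers of members called in the 3 comparisons stayed within 1.5 times of 9, 6 and 3 under all 21 settings tried, 12 of which left out 1 library. Ag+Costim against Ag kept direction and call for every member in 21 settings each, except Nfatc1 with the gene length correction (0.23). Of 567 recomputed member values, 25 lost and 19 gained a call. Between Ag+Costim and Naive, the values of 4 members changed sign, in no case with a call before or after. On log2(FPKM + 1), with or without the filter, Ppp3ca was -0.17, Ppp3cb -0.11 and Ppp3cc -0.19, and on log2(FPKM + 0.1) they were -0.17, -0.12 and -0.20. Ppp3cc was -0.094 with upper-quartile scaling and ranged from -0.026 to 0.13 with a library left out. Rcan1 was 0.017 without the filter on low counts, 0.0068 with the replicate block, and from -0.17 to 0.18 with a library left out. Transcripts with changed usage numbered 4, 2 and 4 in Ag+Costim against Ag, Ag against Naive and Ag+Costim against Naive, and 1, 1 and 0 by diffSpliceDGE, an alternative added after seeing the data. With the replicate block the last 2 became 1 and 0, and with a library left out they ranged from 3 to 6, 1 to 3 and 0 to 4. With any Ag or Ag+Costim library left out, 0 of the 25 shares passed the two-sided exact test after adjustment over them, against 5 with all libraries, as the smallest p that fewer libraries allow is larger. The share differences that changed sign had no call. Nfatc3-201 and Nfat5-214 did so as shares of the FPKM (1.02 and 0.51 points). With a library left out Nfatc3-201 ranged from -1.16 to 1.37 points, Nfatc1-201 from -2.01 to 4.24, Nfat5-212 from -3.97 to 8.24 and Nfat5-214 from -7.20 to 8.58. Of 66 values of named list genes, 0 changed sign, and 42 of 1365 recomputed values lost their call. Same-numbered Ag and Ag+Costim libraries correlated at 0.02 to 0.10. Ag libraries 1, 2 and 3 correlated best with their own number, and 4 and 5 did not. Correlations this weak cannot decide whether the numbers pair the libraries. The replicate block took the members called from 6 to 4 in Ag against Naive and from 3 to 2 in Ag+Costim against Naive. A library left out of the 2 Naive ones leaves 1, assumed to vary like the other groups. Upper-quartile scaling does not enter a share and was not run for shares. The causes of these changes were not tested. Ag library 4 was the shallowest, and the Naive group held 2 libraries, which limits the precision of the values that use them.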
